A study of Mus musculus with 8 samples.

Results

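The small nucleolar RNA (snoRNA) host genes of the mouse pineal gland were examined in RNA-seq libraries of 5xFAD and wild type mice. The 10 genes were Gas5, Snhg1, Snhg3, Snhg5, Snhg6, Snhg8, Snhg11, Snhg12, Snhg14 and Snhg15, chosen by name, and they are 10 of the 53710 gene IDs in the table. Of these, 9 were found by gene name. Snhg15 was found by its gene ID, ENSMUSG00000085156, which the table lists as RP23-69P8.2. The 5xFAD group had 4 libraries, labelled 5xFAD-1 to 5xFAD-3 and 5xFAD-21, and the wild type group had 4, labelled Normal-11, Normal-21, Normal-22 and Normal-23, each a separate biological replicate. The 5xFAD mice carry human APP with the Swedish, Florida and London mutations (APPSwFlLon) and human PS1 with M146L and L286V on a C57BL/6 background, and came from The Jackson Laboratory. The wild type mice were C57BL/6 from Koatech, so genotype and supplier cannot be told apart. All mice were male and 5 months old, and were sampled at Zeitgeber time 0.5, with the glands of 5 to 7 mice pooled per library. The transgenes of this line are driven by the Thy1 promoter, which is active mainly in neurons, and the human transgenes were not analysed here.

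A snoRNA is a short RNA that guides the chemical modification or the cleavage of other RNAs, mostly ribosomal RNA. In mammals most snoRNAs are not transcribed from a promoter of their own but lie in the introns of a host gene. Splicing releases the intron, exonucleases trim it to the snoRNA, and core proteins protect the part that remains. C/D box snoRNAs bind fibrillarin, Nop56, Nop58 and Snu13 and guide 2′-O-methylation, whereas H/ACA snoRNAs bind dyskerin, Gar1, Nhp2 and Nop10 and guide pseudouridylation. The spliced exons of noncoding hosts such as Gas5 usually have no long open reading frame and are removed by nonsense-mediated decay when they are translated. Many hosts are also terminal oligopyrimidine (TOP) genes, whose transcripts start with a run of C and U, as do those of ribosomal proteins.

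The 10 genes carry 240 annotated snoRNA genes on their own strand in GENCODE M21, of which 208 lie in Snhg14, the long transcript of the Prader-Willi and Angelman region. Gas5 carries 10, Snhg1 carries 8, Snhg12 carries 5, Snhg3, Snhg5 and Snhg11 carry 2 each, and Snhg6, Snhg8 and Snhg15 carry 1 each. Snord80 in Gas5 and Snora16a in Snhg12 are each annotated by 2 overlapping gene IDs, which are counted separately. Below are the snoRNAs on which the later comparisons rest, read from the GENCODE M21 transcripts (GRCm38). Snora73b (chr4:132352322-132352526, minus strand) and Snora73a (chr4:132352775-132352979, minus strand) lie in Snhg3. They are shown because they are near copies whose values differed, and capitals mark the positions at which they differ.
Snora73b: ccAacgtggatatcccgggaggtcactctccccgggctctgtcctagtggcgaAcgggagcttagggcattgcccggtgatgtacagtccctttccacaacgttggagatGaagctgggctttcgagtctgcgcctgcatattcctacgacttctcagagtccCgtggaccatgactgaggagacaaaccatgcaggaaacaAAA
Snora73a: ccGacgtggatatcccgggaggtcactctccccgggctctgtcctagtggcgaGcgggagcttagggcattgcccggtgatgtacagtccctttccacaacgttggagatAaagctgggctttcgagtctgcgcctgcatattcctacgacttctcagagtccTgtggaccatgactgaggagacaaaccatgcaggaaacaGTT
Both are 205 nt long and 198 positions were identical, an identity of 96.6%. Counted from 1 at the 5′ end, with the base of Snora73b first, the differences were A3G, A54G, G111A, C164T, A203G, A204T and A205T. Fragments that lie wholly inside either copy can be split between them only where they cover one of these positions.

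Snord22 lies in Snhg1 (chr19:8725866-8725991, plus strand), Snora44 (chr4:132309941-132310069, plus strand) and Snora16a (chr4:132309465-132309600, plus strand) in Snhg12, and Snora9 in Snhg15 (chr11:6528033-6528165, minus strand). They are shown because these 4 separated the libraries by title number, as described further on. Capitals mark the ACA box in Snora16a and Snora9.
Snord22: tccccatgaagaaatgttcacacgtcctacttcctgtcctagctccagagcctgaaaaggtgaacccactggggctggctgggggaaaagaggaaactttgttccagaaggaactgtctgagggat
Snora44: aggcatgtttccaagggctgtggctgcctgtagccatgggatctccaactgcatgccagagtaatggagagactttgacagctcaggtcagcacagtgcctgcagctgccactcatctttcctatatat
Snora16a: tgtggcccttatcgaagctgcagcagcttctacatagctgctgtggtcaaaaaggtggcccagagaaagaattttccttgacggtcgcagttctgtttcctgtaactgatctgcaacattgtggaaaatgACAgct
Snora9: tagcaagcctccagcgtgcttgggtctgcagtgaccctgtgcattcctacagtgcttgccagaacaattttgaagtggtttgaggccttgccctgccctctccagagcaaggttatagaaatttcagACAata
Snord47 (chr1:161038082-161038158, plus strand) in Gas5 is shown as an example of the short C/D box snoRNAs that were almost all listed at 0. Capitals mark the C box TGATGA and the D box CTGA.
Snord47: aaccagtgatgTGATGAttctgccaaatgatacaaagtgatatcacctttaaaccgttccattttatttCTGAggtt

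RefSeq promoter windows (GRCm38.p6, 250 bases before to 50 after the start) matched 9 of the 10 hosts, with 2 starts for Gas5. The start matched for Snhg14 lies within chr7:60450158-60450197 (minus strand). That is upstream of the Snhg14 gene in GENCODE M21, which spans chr7:59307924-59975759. A run of at least 5 pyrimidines (C or T, on the gene's strand) covering the first transcribed base was found at 3 of the 10 host windows, against 10.1% of all 32851 windows. The run could reach before the start and could have T as the first transcribed base, so these are not counts of TOP starts. The 3 windows are printed around the start, with the run in capitals, because TOP transcripts start with a run of pyrimidines. They are the second start of Gas5 (chr1:161035146-161035185, plus strand), Snhg8 (chr3:123508317-123508356, minus strand) and Snhg12 (chr4:132308658-132308697, plus strand).
Gas5: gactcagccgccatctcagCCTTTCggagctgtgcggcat
Snhg8: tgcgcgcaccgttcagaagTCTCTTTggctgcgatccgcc
Snhg12: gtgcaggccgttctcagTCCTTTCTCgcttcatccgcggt
The letters TATAAA on either strand were present in 4 of the 10 windows, against 13.6% of all windows. The letters CACGTG, which read the same on both strands, were present in 1 of the 10, that of Snhg15, against 7.15% of all windows. A match describes the letters and does not show that a factor binds there.

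Values are FPKM, the number of sequenced fragments of a gene scaled by the length of its transcripts and by the depth of the library. In genes with 1 annotated transcript the low values were whole multiples of 1 fragment, within 0.05, for 97.8% to 98.6% of values. These values include the genes at 1 fragment that set the scale, which pass by construction. They were 1192 of 2978 in 5xFAD-1 and 1321 of 3063 in Normal-21. On that scale 1 FPKM stood for 13.6 to 19.3 fragments per kilobase in 5xFAD libraries and 11.9 to 14.8 in wild type libraries. The thinnest value of Gas5 was thus about 1600 fragments per kilobase, and those of Snhg14 and Snhg15 were 28.8 and 27.4. Pinealocyte markers were present in every library, with a summed level of 1970 to 3210 FPKM in 5xFAD and 1263 to 2908 FPKM in wild type. All 8 of them were above 0 in every library. Of the 6 choroid plexus markers, Ttr was listed at 0 in all 5xFAD libraries, against 9440 to 19630 FPKM in wild type. The other 5 summed to 44.3 FPKM in 5xFAD-1 and to 522 to 820 FPKM in the other 5xFAD libraries, against 335 to 608 FPKM in wild type. Fibroblast markers summed to 201 to 1037 FPKM in 5xFAD and 311 to 3477 FPKM in wild type, and adipocyte markers to 1541 FPKM in 5xFAD-2 against 3.38 to 19.2 FPKM in the other libraries. Over all libraries, erythroid markers summed to 497 to 4030 FPKM, highest in 5xFAD-2. Bone marrow neutrophil markers summed to 20.1 to 444 FPKM and osteoblast and osteocyte markers to 21.4 to 144 FPKM, both highest in Normal-11. B cell precursor markers summed to 4.57 to 21.2 FPKM, highest in Normal-21. The part of these cells in the values below was not tested. As these are bulk libraries, fewer cells of a type and less RNA per cell cannot be told apart.

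Gas5 was the most abundant of the hosts, with a mean of 136 FPKM over the 8 libraries. With Malat1 listed at 0 in every library, Gas5 ranked 9 of the 859 long noncoding RNA rows with a mean of at least 1 FPKM. It was followed by Snhg8 at 59.0, Snhg1 at 29.2, Snhg12 at 27.7, Snhg11 at 22.6, Snhg6 at 13.6, Snhg3 at 13.5, Snhg5 at 12.9, Snhg15 at 4.01 and Snhg14 at 3.97 FPKM. Between neighbours in this order, the ranges of the 8 libraries did not overlap only for Gas5 over Snhg8, Snhg8 over Snhg1, and Snhg5 over Snhg15. Snhg11 was above Snhg6 in all 8 libraries although their ranges overlapped. Snhg6, Snhg3 and Snhg5 could not be ordered, as Snhg6 was above Snhg3 in 4 of the 8 libraries and Snhg3 above Snhg5 in 4. Nor could Snhg15 and Snhg14, as Snhg15 was the higher in 4 of the 8. The order of Snhg1, Snhg12 and Snhg11 was weak, with Snhg1 above Snhg12 in 5 libraries and Snhg12 above Snhg11 in 5. FPKM is a level per length, and the authors' gene value combines transcripts of unlike length. Of the 25 annotated transcripts of Gas5, 20 retain an intron, as do 14 of the 18 of Snhg1, and a retained intron holds snoRNA sequence.

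**Figure D1:**
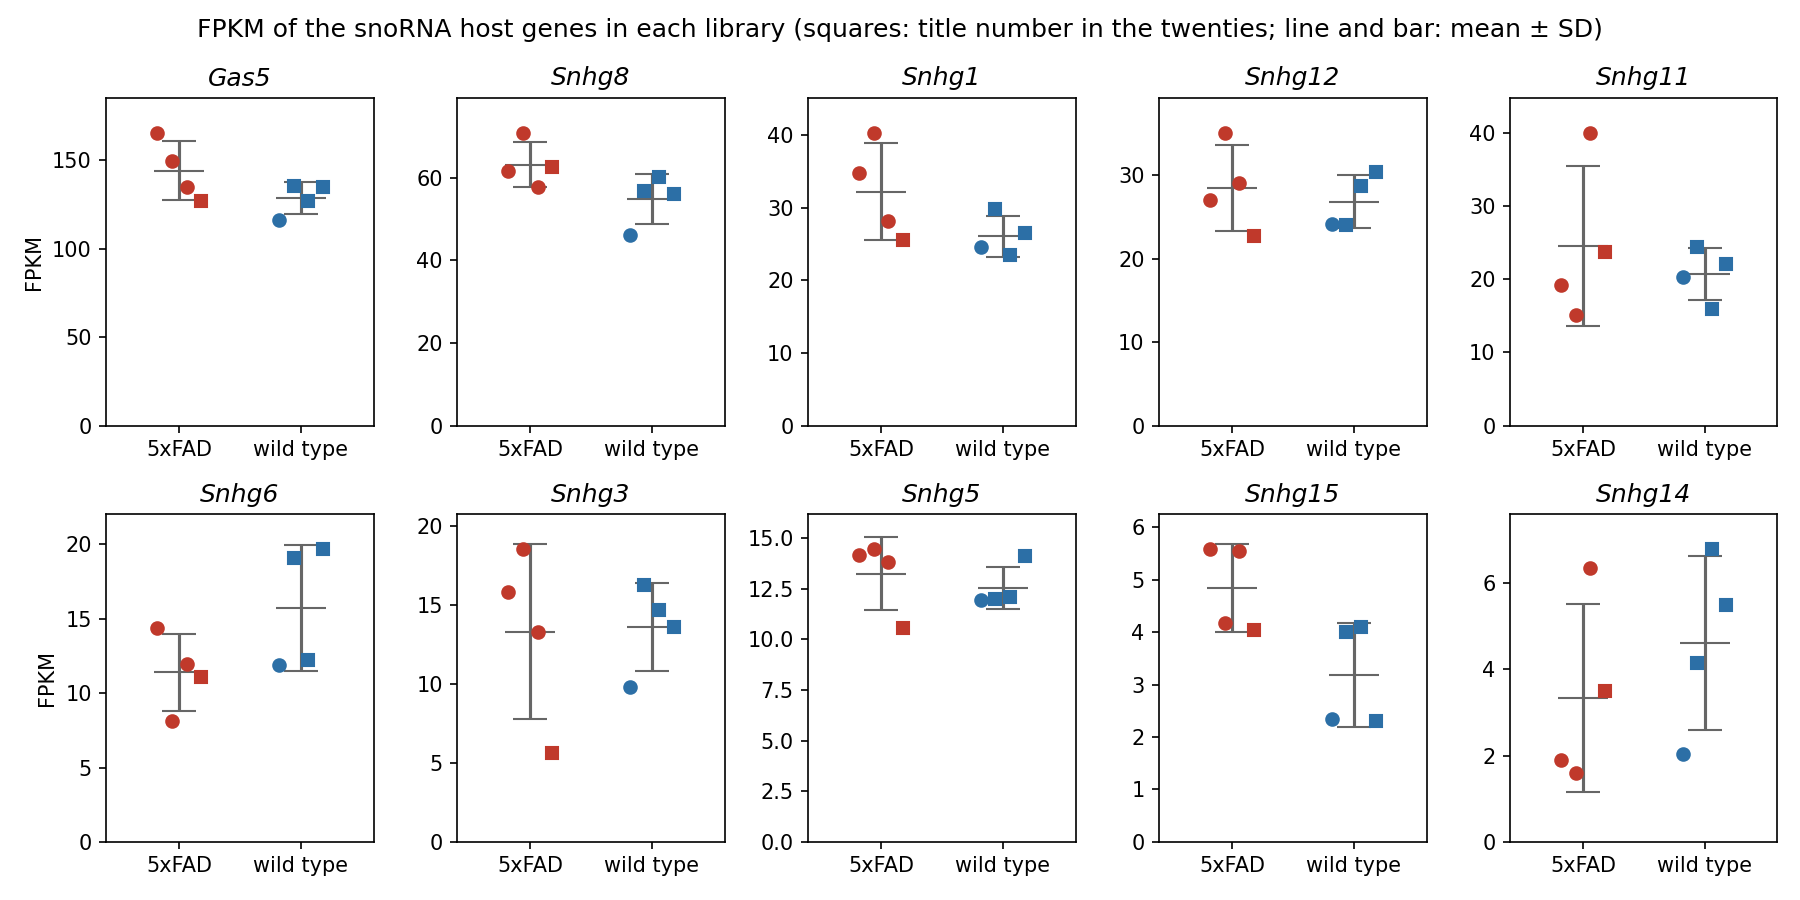
FPKM of each snoRNA host gene (vertical axes, linear and starting at 0, each gene with its own scale) in the 4 libraries of 5xFAD (red, left) and of wild type mice (blue, right). Squares are libraries with a title number in the twenties, and the line and bar are the mean and SD. The 2 groups overlapped for all 10 genes.

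None of the 10 hosts differed between 5xFAD and wild type pineal glands in limma's moderated test at an adjusted p under 0.05 (Benjamini-Hochberg over all 15719 genes tested). In that test 8 of all genes passed, or 0.0509%, of which 0.0445% were higher and 0.00636% lower in 5xFAD. At an unadjusted p under 0.05, 1 of the 10 hosts passed, Snhg15, which was higher, against 8.36% of all genes, 4.71% higher and 3.65% lower. All 10 hosts had overlapping groups, and 4.45% of all genes had groups that did not overlap, 2.16% with every 5xFAD library above and 2.3% with every one below. The log2 fold change of 5xFAD over wild type was above 0 for 7 of the 10 hosts, compared with 47.2% of all genes, and its median was 0.12 for the hosts and −0.02 for all genes tested. The 95% interval of the fold change lay between −1 and 1 on the log2 scale for 8 hosts. For these, a change of 2-fold or more was outside the interval of each gene taken alone. The intervals of Snhg14 and Snhg15 were wider. Fold changes here and below are on the log2(FPKM + 0.1) scale. A fit with the library number set as a term allowed for a difference between the libraries whose title number is in the twenties (5xFAD-21, Normal-21, Normal-22 and Normal-23) and the others.

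**Figure D2:**
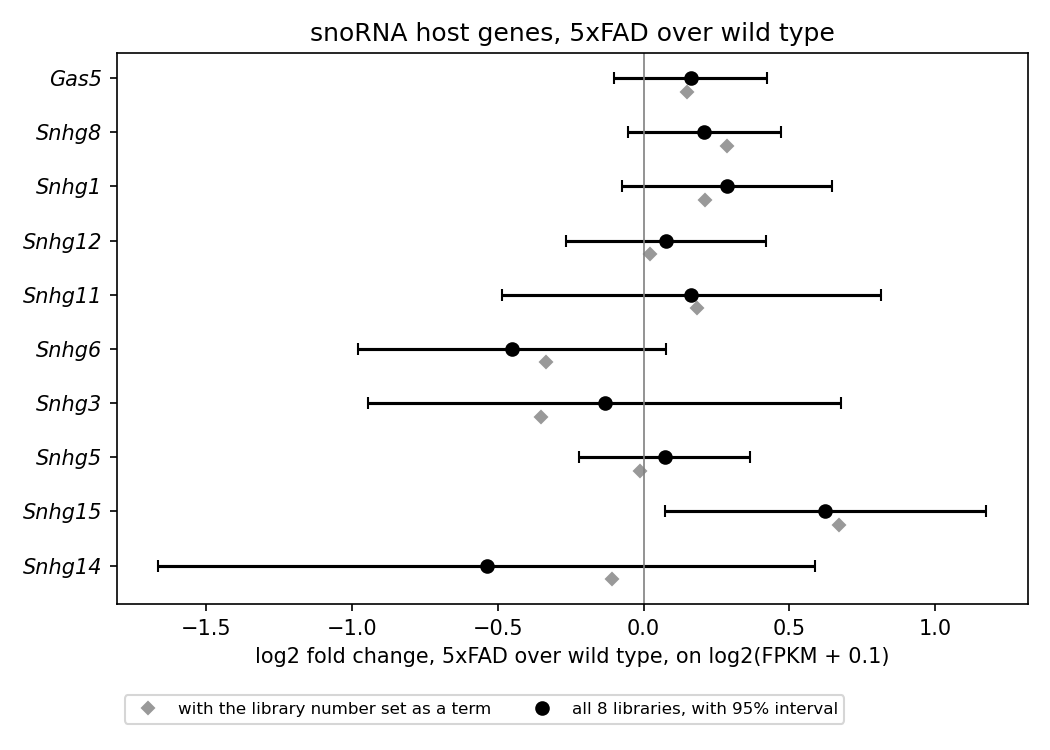
Log2 fold change of 5xFAD over wild type (horizontal axis) for the 10 snoRNA host genes, ordered by mean FPKM. Black points with bars are the fit on all 8 libraries with its 95% interval, and grey diamonds are the fit with the library number set as a term. The interval of Snhg15 alone lay off 0, from 0.07 to 1.18, with no adjustment for the number of genes.

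Gas5, named for its rise in growth-arrested cells, hosts C/D box snoRNAs in its introns. It had 165, 149, 135 and 127 FPKM in 5xFAD libraries (in the order of their numbers, as below), against 116, 135, 127 and 135 FPKM in wild type libraries. Both highest values were in 5xFAD libraries, but 5xFAD-3 and 5xFAD-21 lay within the wild type range. The log2 fold change was 0.16 (SE 0.12, 95% interval −0.10 to 0.42, adjusted p = 0.715 by limma). Gas5 made up 39.6% to 45.9% of the summed FPKM of the 10 hosts in 5xFAD libraries and 41.5% to 43.2% in wild type libraries. Its within-group SD of 0.14 on the log2 scale was larger than that of 12.6% of the genes tested, where the median gene had 0.29. Zbtb37, which overlaps Gas5 on the other strand with starts 427 bp apart, had 7.94 ± 0.88 FPKM in 5xFAD and 9.24 ± 1.30 FPKM in wild type (SD, n = 4 each). Its log2 fold change was −0.21 (adjusted p = 0.695 by limma). Whether the authors counted fragments by strand is not given in the sources used here, so where the genes overlap their fragments may be shared.

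Snhg8, a short host of 853 bp that carries Snora24, had 61.7, 70.8, 57.7 and 62.5 FPKM in 5xFAD libraries, against 46.1, 56.7, 60.2 and 56.2 FPKM in wild type libraries. Only Normal-22 reached into the 5xFAD range. On the log2 scale the fold change was 0.21 (SE 0.12, adjusted p = 0.639 by limma), and its within-group SD was 0.15 on the log2 scale.

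Snhg1 carries C/D box snoRNAs, and its start lies 106 bp from that of the divergent gene Slc3a2, the heavy chain of amino acid transporters. Snhg1 had 34.8, 40.3, 28.2 and 25.6 FPKM in 5xFAD libraries, against 24.6, 29.9, 23.5 and 26.5 FPKM in wild type libraries. The values of 5xFAD-1 and 5xFAD-2 were above all wild type libraries, and the other 5xFAD libraries lay within their range. For Snhg1 the log2 fold change was 0.29 (SE 0.16, adjusted p = 0.639 by limma). Slc3a2 averaged 74.2 ± 9.32 FPKM in 5xFAD and 75.2 ± 11.1 FPKM in wild type (SD, n = 4 each).

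Snhg12 carries H/ACA snoRNAs and Snord99. Its level was 27.0, 35.1, 29.1 and 22.7 FPKM in 5xFAD libraries and 24.2, 24.1, 28.7 and 30.4 FPKM in wild type libraries. The highest and the lowest value were both in 5xFAD. The log2 fold change of 0.08 (SE 0.15, adjusted p = 0.890 by limma) was −0.03 without 5xFAD-2. Snhg5, a host of C/D box snoRNAs, varied least in fold, 1.37-fold between its highest and lowest library. It had 14.1, 14.4, 13.8 and 10.6 FPKM in 5xFAD libraries, against 11.96, 11.97, 12.08 and 14.1 FPKM in wild type libraries. In each group 1 library stood apart, 5xFAD-21 below and Normal-23 above the others. Between the groups the log2 fold change was 0.07 (SE 0.13, adjusted p = 0.875 by limma), and −0.01 with the library number set as a term.

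Snhg3 is the host of both Snora73 copies. It had 15.8, 18.5, 13.3 and 5.62 FPKM in 5xFAD libraries, against 9.80, 16.3, 14.7 and 13.6 FPKM in wild type libraries. The value of 5xFAD-21 was the lowest of all 8. The log2 fold change was −0.13 (SE 0.36, adjusted p = 0.923 by limma) with it and 0.23 without it. Rcc1, the nucleotide exchange factor of the Ran GTPase, overlaps Snhg3 on the same strand with starts 81 bp apart. Rcc1 was highest in 5xFAD-21 at 6.10 FPKM, and averaged 4.64 ± 1.00 FPKM in 5xFAD and 4.70 ± 0.86 FPKM in wild type (SD, n = 4 each). Fragments of the shared part can be given to either gene, and their part in the value of 5xFAD-21 was not tested.

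Snhg6, the host of Snord87, was the only host besides Snhg3 and Snhg14 with a fold change below 0. It had 14.4, 8.16, 11.98 and 11.1 FPKM in 5xFAD libraries, against 11.9, 19.1, 12.2 and 19.7 FPKM in wild type libraries. Normal-21 and Normal-23 were above all 5xFAD libraries, and the other wild type libraries lay within the 5xFAD range. On the log2 scale the fold change was −0.45 (SE 0.23, 95% interval −0.98 to 0.08, adjusted p = 0.619 by limma). Mcmdc2, which overlaps Snhg6 on the other strand, averaged 0.272 ± 0.177 FPKM in 5xFAD and 0.429 ± 0.138 FPKM in wild type (SD, n = 4 each).

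Snhg15, the host of Snora9, had the highest fold change among the hosts, and did not pass the adjusted test. It had 5.58, 4.18, 5.55 and 4.04 FPKM in 5xFAD libraries, against 2.34, 4.00, 4.09 and 2.31 FPKM in wild type libraries. Normal-11 and Normal-23 were lower than the other 6 libraries. The groups overlapped by a small margin, as 5xFAD-21 lay below Normal-22. For Snhg15 the log2 fold change was 0.62 (SE 0.24, 95% interval 0.07 to 1.18, unadjusted p = 0.0311, adjusted p = 0.558 by limma), with a range of 0.49 to 0.76 when each library was left out in turn. The smallest adjusted p of any host over all alternatives, 0.199, was that of Snhg15 without Normal-22. Myo1g, an unconventional myosin gene on the same strand that starts within 5 kb of the 3′ end of Snhg15, averaged 1.41 ± 0.41 FPKM in 5xFAD and 2.46 ± 1.03 FPKM in wild type (SD, n = 4 each).

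Snhg11 and Snhg14 are known as neuronal transcripts. Snhg11, which the table classes as protein-coding, had 19.2, 15.05, 39.9 and 23.8 FPKM in 5xFAD libraries, against 20.3, 24.4, 15.9 and 22.01 FPKM in wild type libraries. The single high value was that of 5xFAD-3. Between the groups the log2 fold change was 0.16 (SE 0.28, adjusted p = 0.873 by limma) with it and −0.10 without it. Of the 8 neuron markers examined, Nefl, Nefm, Rbfox3 and Stmn2 also had their highest value in 5xFAD-3. Nefl, the light neurofilament, had 2.13 FPKM there, against 0.0264 to 0.509 FPKM in the other libraries. Stmn2 had 3.90 FPKM there, against 0.428 to 1.42 FPKM in the others. Nefm had 1.14 FPKM there, against 0 to 0.337 FPKM in the others. Rbfox3 was under 1 FPKM in every library, with 0.257 FPKM in 5xFAD-3 and 0 to 0.168 FPKM in the others. The other 4 markers, which include Snap25 at 246 to 692 FPKM, were not highest in 5xFAD-3, and the 8 together summed to 632 to 873 FPKM in 5xFAD and 419 to 1052 FPKM in wild type. Whether other neurons in the pool account for the Snhg11 value was not tested.

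Snhg14 runs antisense through Ube3a in neurons, where it is expressed from the paternal chromosome and silences the paternal copy of Ube3a, a ubiquitin ligase. It had 1.91, 1.59, 6.34 and 3.50 FPKM in 5xFAD libraries, against 2.04, 4.15, 6.78 and 5.48 FPKM in wild type libraries, a range of 4.27-fold. It was the most variable host, with a within-group SD of 0.81 on the log2 scale, above that of 89.3% of the genes tested. Its 3 lowest values were in 5xFAD-1, 5xFAD-2 and Normal-11. The log2 fold change was −0.54 (SE 0.49, adjusted p = 0.773 by limma) and −0.11 with the library number set as a term. Ube3a had 45.7 ± 5.48 FPKM in 5xFAD and 43.2 ± 2.56 FPKM in wild type (SD, n = 4 each), which differed by 0.07 on the log2 scale (adjusted p = 0.843 by limma). Snurf, which shares its locus with Snrpn upstream of Snhg14, had 104, 64.3, 55.9 and 116 FPKM in 5xFAD libraries, against 37.3, 44.97, 62.5 and 52.5 FPKM in wild type libraries. Only Normal-22 reached into the 5xFAD range, and the log2 fold change was 0.74 (SE 0.26, unadjusted p = 0.0217, adjusted p = 0.547 by limma). Gm38393, which overlaps Snhg14 on the same strand, averaged 3.68 ± 1.27 FPKM in 5xFAD and 4.36 ± 1.04 FPKM in wild type (SD, n = 4 each). Snrpn had a log2 fold change of 0.25 and Ndn of −0.32, both short of the adjusted test.

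The snoRNAs inside the hosts were mostly listed at 0. Of the 240 rows, 228 were at 0 in all 8 libraries, among them all 208 of Snhg14, and 6 were above 0 in every library. Length separated them: 227 of the 229 snoRNAs under 100 nt were at 0 throughout, compared with 1 of the 11 that were longer. Over all gene IDs, 98.1% of the snoRNA and scaRNA rows under 100 nt were at 0 in every library, and 84.4% of the longer ones. A few short rows took a very large value in a single library. Snord47 was listed at 64880 FPKM in 5xFAD-3 and Snord80 at 54614 FPKM in Normal-21, and both were at 0 elsewhere. The other, overlapping gene ID of Snord80 was at 0 in all 8 libraries. The steps of 1 fragment in genes of different length implied a mean fragment of 170 to 182 nt in 5xFAD libraries and 166 to 181 nt in wild type libraries, which is longer than every snoRNA here except the Snora73 copies. A listed 0 was not read as the absence of a snoRNA, and values above 0 were compared between libraries and not between snoRNAs, except for the Snora73 copies, which are of equal length.

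Among the 6 snoRNAs above 0 in every library, 4 were higher in each of the libraries numbered in the twenties (5xFAD-21, Normal-21, Normal-22 and Normal-23) than in any of the others (5xFAD-1 to 5xFAD-3 and Normal-11). This was so for 3.54% of all genes tested, for 32 of the 87 other snoRNA and scaRNA rows above 0 in every library (36.8%), and for none of the 10 hosts. The labels do not say what the numbers stand for, and the sets are uneven in genotype, with 1 5xFAD library among those in the twenties and 3 among the others. The implied mean fragment was 178 to 182 nt in the libraries numbered in the twenties and 166 to 175 nt in the others. The paper's read statistics separate the same sets. Its rate of undetermined bases (N rate) was higher in each library numbered in the twenties than in any of the others. The part of fragment length or of read quality in these values was not tested.

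Snord22 had 30979, 26238, 26381 and 91816 FPKM in 5xFAD libraries, against 37216, 100365, 94443 and 83906 FPKM in wild type libraries. Its host Snhg1 was lower in 5xFAD-21 than in the other 5xFAD libraries. Snora44 in Snhg12 had 2638, 1115, 1901 and 5579 FPKM in 5xFAD libraries, against 2795, 6167, 6710 and 5887 FPKM in wild type libraries. Snora9 in Snhg15 had 534, 612, 561 and 1081 FPKM in 5xFAD libraries, against 536, 834, 1441 and 1466 FPKM in wild type libraries. The same order held for Snora16a in Snhg12, with 51.6, 64.7, 62.2 and 350 FPKM in 5xFAD libraries, against 84.4, 187, 145 and 408 FPKM in wild type libraries. In each case 5xFAD-21 was with the wild type libraries numbered in the twenties, and Normal-11 was nearer to the other 5xFAD libraries. The log2 fold changes of 5xFAD over wild type were −0.98, −1.11, −0.56 and −0.92, none called (adjusted p = 0.717, 0.607, 0.692 and 0.721 by limma). With the number set as a term, those of Snord22, Snora44, Snora9 and Snora16a were −0.22, −0.41, −0.04 and 0.07. After quantile normalization that of Snord22 was −0.01, that of Snora44 −0.35 and that of Snora9 −0.25.

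**Figure D3:**
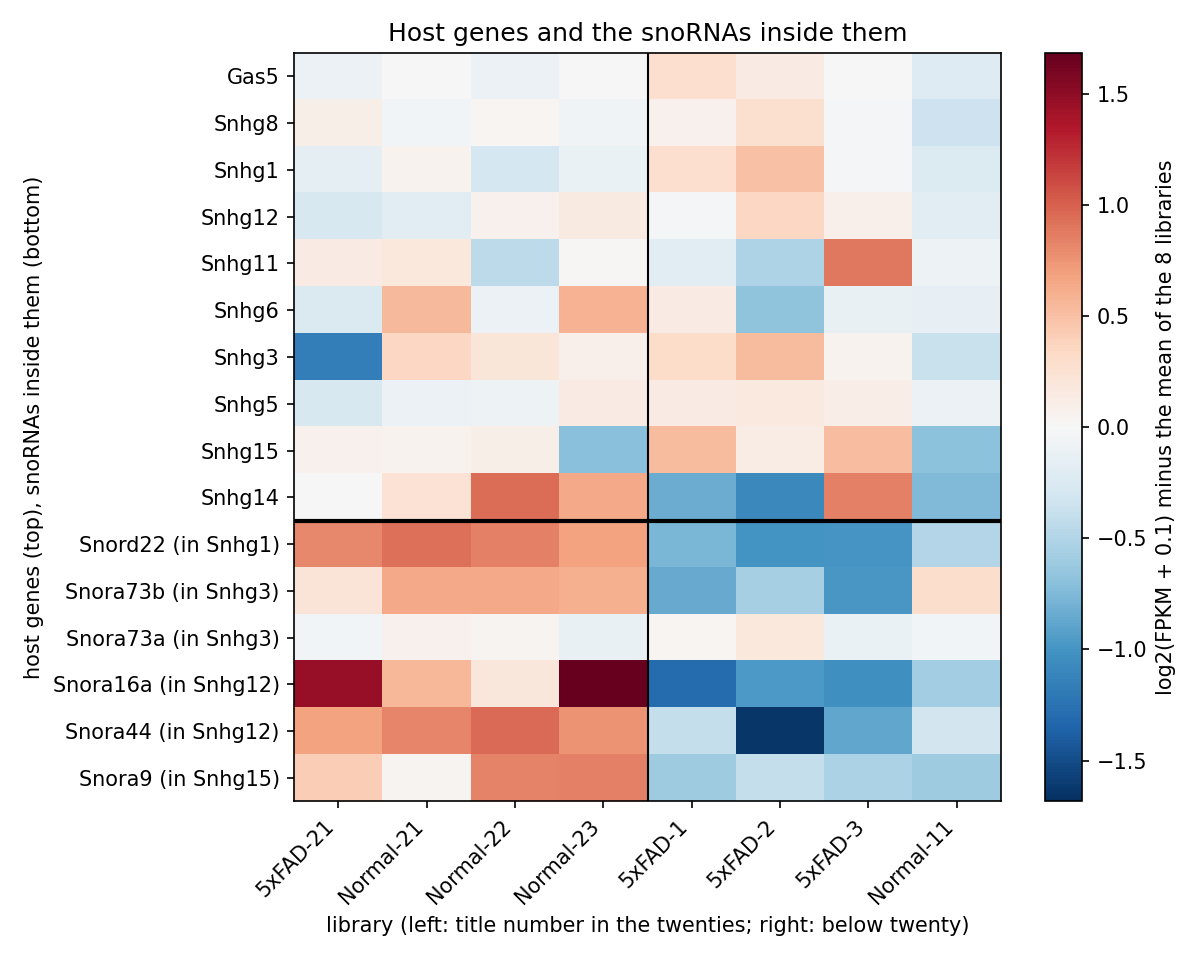
Log2(FPKM + 0.1) of each host gene (top) and of the 6 snoRNAs above 0 in every library (bottom), as the difference from its own mean over the 8 libraries (colour; red is higher). Columns are libraries, those numbered in the twenties left of the vertical line. Snord22, Snora16a, Snora44 and Snora9 were high in all 4 libraries on the left and in no library on the right, and no host showed this order.

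The 2 snoRNAs of Snhg3 differed from each other. Snora73b had 3163, 3869, 2893 and 6584 FPKM in 5xFAD libraries, against 6958, 8847, 8817 and 8605 FPKM in wild type libraries. Every 5xFAD library was below every wild type library, as was so for 2.3% of all genes tested and for 21 of the 87 other snoRNA and scaRNA rows (24.1%). On the log2 scale the fold change was −1.08 (SE 0.32, unadjusted p = 0.00933) and did not pass the adjusted test (adjusted p = 0.474 by limma). It was −0.75 with the number set as a term (adjusted p = 0.395) and −0.29 after quantile normalization (adjusted p = 0.699). Snora73a had 4806, 5352, 4348 and 4573 FPKM in 5xFAD libraries, against 4544, 4936, 4883 and 4338 FPKM in wild type libraries, and the groups overlapped (log2 fold change 0.03, SE 0.22, adjusted p = 0.980 by limma). After quantile normalization its log2 fold change was 0.84 (adjusted p = 0.458). As both are 205 nt long, the ratio of their FPKM does not depend on the length term. Snora73b over Snora73a was 0.658, 0.723, 0.665 and 1.44 in 5xFAD libraries, against 1.53, 1.79, 1.81 and 1.98 in wild type libraries. The ratio of 5xFAD-21 was nearer to the wild type libraries than to the other 5xFAD libraries. The host Snhg3 showed no such order, being lowest in 5xFAD-21 and Normal-11.

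**Figure D4:**
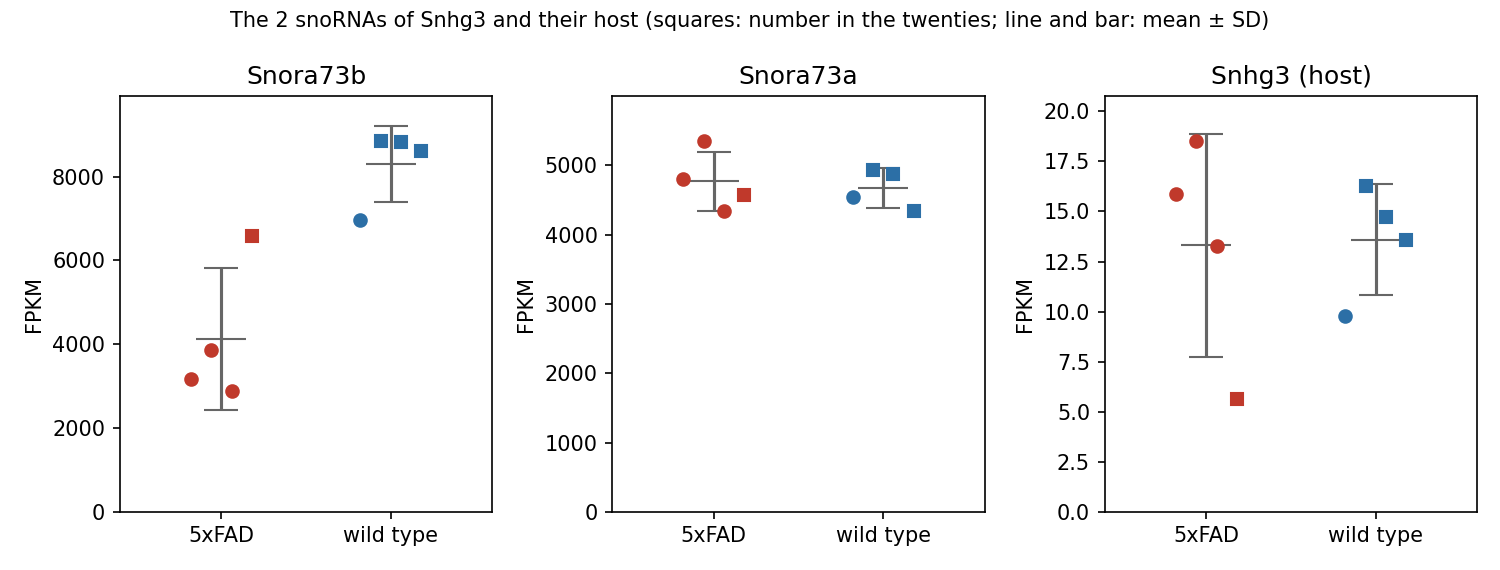
FPKM (vertical axes, linear, starting at 0) of Snora73b, Snora73a and their host Snhg3 in the libraries of 5xFAD (red, left) and wild type mice (blue, right). Squares are libraries numbered in the twenties, and the line and bar are the mean and SD. Snora73b lay between 2893 and 6584 in 5xFAD and between 6958 and 8847 in wild type, while the groups overlapped for Snora73a and Snhg3.

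Of the remaining snoRNAs, Snora24 in Snhg8 had 39.6, 25.4, 0 and 117 FPKM in 5xFAD libraries, against 63.7, 73.2, 38.1 and 45.9 FPKM in wild type libraries. Snora61 in Snhg12 was at 0 in 5xFAD-2 and between 72.7 and 310 FPKM in the other libraries. Gm25129 in Snhg11 was at 0 in 5xFAD-3, the library with the highest Snhg11, and between 17.1 and 174 FPKM in the others. The other gene ID of Snora16a, which overlaps the one compared above, was between 0 and 0.123 FPKM.

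The genes that work with the hosts and their snoRNAs were read from lists, and none of them had a member called in the adjusted test. Among 9 other noncoding snoRNA hosts tested, none passed at an unadjusted p under 0.05 and the median log2 fold change was 0.0036. Dancr had a log2 fold change of 0.22. Snhg7 had 32.1, 79.7, 41.4 and 143 FPKM in 5xFAD libraries, against 42.5, 115, 99.3 and 143 FPKM in wild type libraries, with a log2 fold change of −0.55, and 0.22 with the number set as a term. Snhg7 and Snhg20 were the 2 of these 9 hosts that were higher in each library numbered in the twenties than in any other. Over all genes tested this was so for 3.54%. Snhg9 had 15.4, 13.0, 7.65 and 3.28 FPKM in 5xFAD libraries, against 0, 6.07, 3.17 and 3.69 FPKM in wild type libraries, and did not pass (adjusted p = 0.625 by limma). Of 30 protein-coding hosts tested, 1 was higher at an unadjusted p under 0.05 (4.71% of all genes) and none lower, and the median was 0.07. This was Hspa8, the constitutive Hsc70 chaperone, with 735, 862, 619 and 749 FPKM in 5xFAD libraries, against 434, 561, 618 and 619 FPKM in wild type libraries. Its log2 fold change was 0.41 (SE 0.17, adjusted p = 0.581 by limma), and the groups were barely apart. Rps20, a small subunit ribosomal protein, had a log2 fold change of 0.26.

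Of the 8 core proteins of the snoRNA particles, none passed at an unadjusted p under 0.05, and their median log2 fold change was 0.06. Of the C/D box proteins, Nop56 had 28.8, 24.3, 25.6 and 26.4 FPKM in 5xFAD libraries, against 29.3, 29.6, 28.5 and 31.0 FPKM in wild type libraries (log2 fold change −0.17, SE 0.09, adjusted p = 0.619 by limma), with 5xFAD-1 alone within the wild type range. Its partner Nop58 had a log2 fold change of 0.23, the methyltransferase fibrillarin (Fbl) of 0.10 and Snu13 of 0.04. Of the H/ACA proteins, the pseudouridine synthase dyskerin (Dkc1) had −0.14, Nop10 0.22, Nhp2 0.07 and Gar1 0.02. Of the 11 assembly factors 10 had a fold change above 0, against 47.2% of all genes tested. Their median was 0.19, against −0.02 for all genes, and none passed at an unadjusted p under 0.05. Shq1, a dyskerin chaperone, had a log2 fold change of 0.39, and Ruvbl1 and Znhit6 had 0.21 each.

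The 14 factors of nonsense-mediated decay, which degrades spliced host transcripts, had a median of −0.05, and none passed at an unadjusted p under 0.05. Smg8 had a log2 fold change of 0.31, Magoh of 0.23 and Upf3b of −0.21. The TOP genes were also near 0. The 12 TOP genes tested outside the ribosomal proteins, mostly translation factors, had a median of 0.04 with none past an unadjusted p of 0.05. Among them were Eif3e at 0.17, Pabpc1 at −0.32 and Npm1, which is not a translation factor, at 0.08. Of 80 cytosolic ribosomal protein genes, 2 were higher at that unadjusted threshold, against 4.71% of all genes, and none was lower. The 2 were Rpl22l1 at 0.34 and Rps13 at 0.28, and Rps16 had −0.23. The median of the 80 genes was 0.03.

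Averaged over the 10 hosts, the log2 deviation from the mean of the 8 libraries was highest in 5xFAD-3 at 0.23 and lowest in Normal-11 at −0.31. In 5xFAD-3 it came from Snhg11 at 0.88, Snhg14 at 0.84 and Snhg15 at 0.52, and the other 7 hosts lay between −0.13 and 0.11. In Normal-11 all 10 hosts were below their mean. The summed FPKM of the hosts was 360, 358, 341 and 296 in 5xFAD libraries, against 270, 326, 305 and 325 in wild type libraries. The genes whose deviations over the 8 libraries were nearest to the mean of the hosts were Mfsd9, Slc1a4, Cir1, Mios and Rufy3, with a root mean square difference of 0.060, 0.070, 0.074, 0.079 and 0.094 on the log2 scale.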

How the data were processed

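Total RNA of pooled pineal glands was depleted of ribosomal RNA (Ribo-Zero Gold) and sequenced with paired 100-cycle reads from TruSeq Stranded libraries. The authors trimmed reads with Trimmomatic, aligned them to mm10 with STAR and computed the deposited FPKM with Cuffnorm on the GENCODE M17 annotation (GRCm38.p6). Versions, strand setting and library normalization are not given in the sources used here. The authors' mean column was not used, and the number of library columns mapped to no sample was 0.

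Of 53710 gene IDs, 53616 matched GENCODE M21, from which snoRNA positions and sequences were read. FPKM are not counts, and genes with several transcripts cannot be turned back into reads, so no count test was run. Differences were fitted with limma 3.58.1 in R 4.3.3 (lmFit, eBayes with a trend) on log2(FPKM + 0.1) for the 15719 genes that averaged 1 FPKM or more across all 8 libraries, two-sided, with Benjamini-Hochberg adjustment over all of them. No covariate was used. A call is an adjusted p under 0.05. The pseudocount understates changes of low genes. Intervals are 95% and unadjusted. The fit was tested on simulated data. Figures were drawn in Python 3.11.15.

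Named genes were all hosts, the 3 genes of smallest p per list, every snoRNP core protein, protein-coding genes that overlap a host or start within 5 kb of either end of it, the 5 genes nearest the hosts' mean profile and the 3 snoRNAs with the highest mean FPKM per host. Single cell type markers and Snhg20 were named after their values were seen. The hosts and lists were chosen with earlier results of these data known. Alternatives were other pseudocounts (0.01 and 1), filters, gene classes, scalings, no trend, array weights, the library number set as a term, a replicate block, removal of the trend on GC content (lowess span 0.3) and leaving out each library.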

Additional observations from a re-analysis of the deposited data

Results flagged for a closer look

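Of 32 groups of 4 libraries checked, 6 held a library that stood far from the other 3 by Dixon's criterion for the gap to the nearest library over the range, and chance flags about 1 in 20 groups. Snhg5 was 10.6 FPKM in 5xFAD-21, against 13.8 to 14.4 FPKM in the other 5xFAD libraries, and 14.1 FPKM in Normal-23, against 11.96 to 12.08 FPKM in the other wild type libraries. In 5xFAD-21, 3 snoRNAs stood above the other 5xFAD libraries. Snord22 had 91816 FPKM there, against 26238 to 30979 FPKM in the others. Snora16a had 350 FPKM there, against 51.6 to 64.7 FPKM. Snora9 had 1081 FPKM there, against 534 to 612 FPKM. Snora73b had 6958 FPKM in Normal-11, the lowest wild type value, against 8605 to 8847 FPKM in the other wild type libraries.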

How the results depend on the processing

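No host was called under any alternative. No snoRNA inside a host was called under the alternatives that tested them, with 6 tested where every library had to be above 0 and none in the fit on protein-coding and lncRNA classes. The smallest adjusted p of a host ran from 0.199 (without Normal-22) to 0.984 (without Normal-21), with 0.223 under array weights. Of the hosts, 6 to 8 of 10 had a fold change above 0, and a minimum mean of 5 FPKM left 8 tested, 6 above 0. Over all genes, the 8 calls became 16 with no filter on low values, 16 with array weights and 0 where every library had to be above 0. Leaving out 1 library gave 6 to 65 calls, with 65 without Normal-22 and 28 without 5xFAD-21. The direction reversed, with no call on either side, for Snhg5 (−0.011) and Snora16a (0.069) with the number set as a term, and on leaving out 1 library for Snhg3 (−0.33 to 0.23, 0.23 without 5xFAD-21), Snhg11 (−0.10 without 5xFAD-3, up to 0.36), Snhg12 (−0.029 without 5xFAD-2, up to 0.18) and Snora73a (−0.030 to 0.070). The cause was not tested. Replicate numbers did not pair the libraries, as same-numbered deviations correlated at −0.05, 0.09, −0.08 and 0.02 and 1 of 8 libraries correlated best with its own number. A replicate block gave 6 calls over all genes and 0 hosts. Per kilobase of transcript, Snhg14 and Snhg15 had the fewest fragments.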
